A study of Rattus norvegicus with 17 samples.

Results

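The genes described here serve the secretion of bicarbonate-rich fluid by the bile ducts. They were 8 genes chosen by name, with earlier results of these data known: Sctr, Cftr, Car2, Aqp1, Slc4a2, Slc10a2, Kcnn4 and Itpr3. Each was read from the probe sets annotated to its symbol and to no other, which gave 10 probe sets of the 31042 on the array that are not controls. Car2 and Aqp1 had 2 probe sets each and the other genes had 1. Of the 8 genes, 6 were kept for the test across 9736 genes. Kcnn4 and Itpr3 were too dim, since they did not exceed the median of all deposited values (intensity 15.5, log2 3.95; the filter level) in 5 or more rats.

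In the bile duct epithelium the hormone secretin binds its receptor, raises cyclic AMP and opens the chloride channel CFTR, and the chloride that leaves the cell is taken back by an anion exchanger in return for bicarbonate. Carbonic anhydrase supplies the bicarbonate and aquaporins let water follow. Calcium signals and a separate set of chloride and potassium channels provide a second route, and a sodium-dependent transporter lets duct cells take bile acids back from bile.

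Liver RNA of 17 rats was measured with 1 array per rat (an Affymetrix whole-genome rat array). The ligated ghrelin group (n = 5) had its bile duct tied at week 7 and received recombinant ghrelin, an appetite-stimulating stomach hormone, at 10 µg/kg/day from an osmotic minipump under the skin. The ligated saline group (n = 6) had the same ligation with saline in the pump, and the sham group (n = 6) had a sham operation with saline in the pump. All livers were taken at week 9, and no sham rats received ghrelin. The labels used name no strain, sex or array batch. Rats are numbered within their group in the order of deposit.

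The samples were whole liver, in which duct cells are a minority. Summed hepatocyte marker intensity covered similar ranges, with 214795 to 226205 in ligated ghrelin rats, 210012 to 224866 in ligated saline rats and 213789 to 228797 in sham rats. These 6 markers are very bright, with mean log2 intensities of 14.6 to 15.9 in ligated saline and sham rats. In ligated saline against sham rats 5 were not called and Ttr was lower by -0.20 on the log2 scale. The sum does not speak for dimmer hepatocyte genes, such as the uptake carrier Slc10a1, which fell (-1.29, below). Summed intensity of 7 bile duct markers was 6702 to 10703 in ligated ghrelin rats, 5527 to 17219 in ligated saline rats and 373 to 739 in sham rats. All 7 duct markers passed the test as higher in ligated saline than in sham rats, among them Cd24 by 7.01 and Prom1 by 4.87 on the log2 scale. The median intensity of an array was 15.4 to 16.4 in ligated ghrelin rats, 16.1 to 17.6 in ligated saline rats and 14.2 to 14.7 in sham rats. Intensities of different probe sets are not compared with each other here, because they depend on the probes as well as on the RNA.

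The secretin receptor Sctr and the chloride channel Cftr rose strongly in ligated liver, Car2 and Aqp1 rose by less, and Slc4a2 and Slc10a2 did not pass the test. In ligated saline against sham rats, 4 of the 6 kept genes were higher and 0 were lower at an adjusted p under 0.05. Over all 9736 genes, 37.5% were higher and 27.2% were lower in that comparison. The choice of the genes was not independent of these data, so the shares are set side by side only as a description. For 3 of the 6, Sctr, Cftr and Car2, every ligated saline rat lay above every sham rat, a pattern seen in 25.9% of all genes. Sctr and Cftr exceeded the filter level in the 11 ligated rats and in 0 sham rats, so they were kept only through the groups where they are high. Their separation and their place in these counts and in the median below partly follow from the filter. The median change of the 6 genes was 1.51 on the log2 scale, beside 0.07 for all genes. In bulk liver, fewer cells of a type and less RNA per cell cannot be told apart, and the same holds for more of either.

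The promoter windows of Sctr and Cftr, which changed most, are shown as RefSeq gives them for the rat assembly GRCr8, 5′ to 3′, from 250 bases before to 50 bases after the listed start site. The Sctr window is chr13:33680377-33680676 on the plus strand and the Cftr window is chr4:47527379-47527678 on the plus strand. The start site used for Cftr lies inside the annotated span of the gene, which runs over chr4:47422084-47694646. That of Sctr, at chr13:33680627, also lies inside its annotated span, which runs over chr13:33680562-33744049. Capitals mark matches to GGGCGG, the core of the Sp1 site.
Sctr promoter: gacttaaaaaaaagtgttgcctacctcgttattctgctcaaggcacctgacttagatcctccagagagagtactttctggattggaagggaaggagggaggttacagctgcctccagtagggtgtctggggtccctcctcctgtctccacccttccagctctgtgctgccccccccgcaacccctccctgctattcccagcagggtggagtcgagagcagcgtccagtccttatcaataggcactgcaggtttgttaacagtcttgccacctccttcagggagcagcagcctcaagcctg
Cftr promoter: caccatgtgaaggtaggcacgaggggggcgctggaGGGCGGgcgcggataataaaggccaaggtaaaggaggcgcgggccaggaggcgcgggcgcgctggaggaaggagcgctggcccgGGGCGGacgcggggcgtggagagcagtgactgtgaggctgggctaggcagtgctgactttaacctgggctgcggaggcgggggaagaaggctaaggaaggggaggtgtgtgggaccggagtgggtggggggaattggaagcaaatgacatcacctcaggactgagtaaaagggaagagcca
Both strands were searched for GGGCGG, for the cyclic AMP response element TGACGTCA and its core TGACG, which the full element also holds, for GTTAAT and the full HNF1 site, and for the SOX core AACAAT. The Sctr window held none of them. The Cftr window held GGGCGG at positions -215 and -131, counted from the start site, and no exact match to the others. Sequences that only resemble these motifs were not searched for. Of 33469 rat promoter windows of this length, 33.1% held GGGCGG, 21.2% held TGACG, 1.83% held TGACGTCA, 7.45% held GTTAAT, 11.7% held AACAAT and 0.00299% held the full HNF1 site. GC content was 55.7% in the Sctr window and 65.0% in the Cftr window. These matches describe the letters alone.

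Sctr encodes the secretin receptor, a G-protein-coupled receptor known in rat liver from duct cells. On the log2 scale, Sctr intensity was 9.05, 8.74, 8.97, 9.58 and 8.72 in the ligated ghrelin rats. It was 8.27 to 10.35 in the ligated saline rats, with a median of 9.32, and 2.55 to 3.03 in the sham rats, with a median of 2.80. All 11 ligated rats were far above all 6 sham rats, and the ligated ghrelin rats lay inside the range of the ligated saline rats. In ligated saline against sham rats, the fitted change was 6.49 ± 0.292 (log2, SE, adjusted p = 7.61e-11), the 8th largest increase of 9736 genes. Every sham rat was below the filter level, so the fold was bounded against that level as at least 40.3-fold higher in ligated saline rats. The rank rests on the same low sham values. With values under the filter level set to it, the Sctr change was 5.33. The SD was 0.347 log2 units in the 5 ligated ghrelin rats and 0.817 in the 6 ligated saline rats.

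Cftr encodes the cyclic AMP-gated chloride channel of the apical duct membrane. Its log2 intensity was 7.95, 7.87, 8.37, 8.94 and 8.11 in the ligated ghrelin rats. It ranged over 7.82 to 9.10 in the ligated saline rats, median 8.42, and over 2.16 to 3.15 in the sham rats, median 2.89. The separation was complete here too, with every sham rat below the filter level. Ligated saline rats exceeded sham rats by 5.69 ± 0.244 on the log2 scale (SE, adjusted p = 4.58e-11), at least 22.3-fold against the filter level, and this was the 18th largest increase. That rank too rests on sham values under the filter level, and with such values set to the level the Cftr change was 4.48.

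Car2 encodes the cytosolic carbonic anhydrase that makes bicarbonate from carbon dioxide in duct cells and is abundant in red blood cells. Its brighter probe set, which represents the gene, read 9.20, 9.19, 9.03, 9.92 and 9.25 in the ligated ghrelin rats on the log2 scale. It read 9.22 to 11.15 in the ligated saline rats, median 9.91, and 7.62 to 8.68 in the sham rats, median 8.11. All ligated rats were above all sham rats, and ligated ghrelin rats 1, 2 and 3 lay just below the lowest ligated saline rat. The change in ligated saline against sham rats was 1.93 ± 0.275 (log2, SE, adjusted p = 1.35e-05). The dimmer probe set changed by less, 1.05 ± 0.249 (adjusted p = 0.00157), and there the groups overlapped, with 8.77 to 10.71 in ligated saline and 8.30 to 8.88 in sham rats.

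Red cell markers moved in the opposite direction to Car2. Of the 3 kept erythroid markers, 2 were lower in ligated saline than in sham rats and 1 did not pass the test, with a change of -1.17 for Hbb and -2.99 for Alas2. Summed over the 6 erythroid markers on the array, intensity was 7278 to 11171 in ligated ghrelin rats, 4457 to 11496 in ligated saline rats and 14630 to 18518 in sham rats, while Epb42, Rhag and Klf1 were below the filter level on all arrays.

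Aqp1 encodes a water channel of duct cells, and also of endothelium and red cells. The representing probe set read 6.82, 6.77, 7.80, 6.91 and 7.35 in the ligated ghrelin rats on the log2 scale. It read 6.35 to 7.89 in the ligated saline rats, median 6.90, and 5.66 to 6.41 in the sham rats, median 6.16. The ligated ghrelin rats were all above the sham rats, whereas the lowest ligated saline rat, number 3, fell below the highest sham rat. Ligated saline exceeded sham by 0.91 ± 0.241 (log2, SE, adjusted p = 0.00353), and the dimmer probe set by 0.76 ± 0.245 (adjusted p = 0.0127). Summed intensity of 7 endothelial markers was 3718 to 5608 in ligated ghrelin rats, 4172 to 5523 in ligated saline rats and 4517 to 5926 in sham rats, and 2 of the 7 were higher, 1 lower and 4 not called in ligated saline against sham rats. The part of red cells and endothelium in the Car2 and Aqp1 values was not tested.

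Slc4a2 encodes the chloride and bicarbonate exchanger AE2, the step by which bicarbonate leaves the duct cell. Its log2 intensity was 8.02, 7.90, 8.73, 8.34 and 8.43 in the ligated ghrelin rats, 7.67 to 8.29 in the ligated saline rats (median 7.93) and 7.49 to 8.28 in the sham rats (median 8.06). The 3 ranges overlapped. The difference between ligated saline and sham rats was 0.01 ± 0.156 (log2, SE), with a 95% interval of -0.32 to 0.34 and an adjusted p of 0.957. Its sign turned when the arrays were scaled differently, to -0.104 with quantile normalization and -0.179 with equal array medians. Slc4a2 is also expressed in other liver cells, whose share in these values was not tested.

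Slc10a2 encodes the apical sodium-dependent bile acid transporter. Its log2 intensity was 5.60, 2.17, 7.23, 5.58 and 6.22 in the ligated ghrelin rats. The 6 ligated saline rats read 2.17, 4.85, 5.48, 5.09, 5.57 and 4.58, and the 6 sham rats read 4.90, 3.93, 2.18, 2.19, 3.44 and 4.62. The gene exceeded the filter level in 4 of 5 ligated ghrelin rats, 5 of 6 ligated saline rats and 2 of 6 sham rats, and each group held at least 1 rat between 2.17 and 2.19. The change in ligated saline against sham rats was 1.08 ± 0.770 (log2, SE), with a 95% interval of -0.55 to 2.70 and an adjusted p of 0.235.

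Kcnn4, a calcium-activated potassium channel of duct cells that T cells and macrophages also use, was dim. It read 3.08 to 3.31 on the log2 scale in ligated ghrelin rats, 2.96 to 4.41 in ligated saline rats and 2.94 to 3.35 in sham rats. It exceeded the filter level on 3 arrays, all of ligated saline rats (numbers 1, 2 and 6 with 4.12, 4.16 and 4.41). Without the filter, the change in ligated saline against sham rats was 0.58 ± 0.200 (log2, SE, adjusted p = 0.0175). Summed intensity of 5 T cell markers was 72.1 to 90.5 in ligated ghrelin rats, 77.8 to 273 in ligated saline rats and 57.0 to 87.8 in sham rats; Cd3d was below the filter level in all groups, and Cd3g and Cd2 in ligated ghrelin and sham rats. Summed macrophage markers were 8006 to 11061 in ligated ghrelin rats, 9142 to 13101 in ligated saline rats and 4405 to 8163 in sham rats. The part of these cells in the Kcnn4 values was not tested.

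Itpr3, the inositol trisphosphate receptor that releases calcium near the apical pole of duct cells, was below the filter level on all 17 arrays. It read 2.40 to 3.15 on the log2 scale in ligated ghrelin rats, 2.40 to 3.23 in ligated saline rats and 2.40 to 2.42 in sham rats. Without the filter it differed by 0.29 ± 0.160 in ligated saline against sham rats (log2, SE, adjusted p = 0.115), with a 95% interval of -0.05 to 0.63, so that no change was detectable on this probe set.

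**Figure D1:**
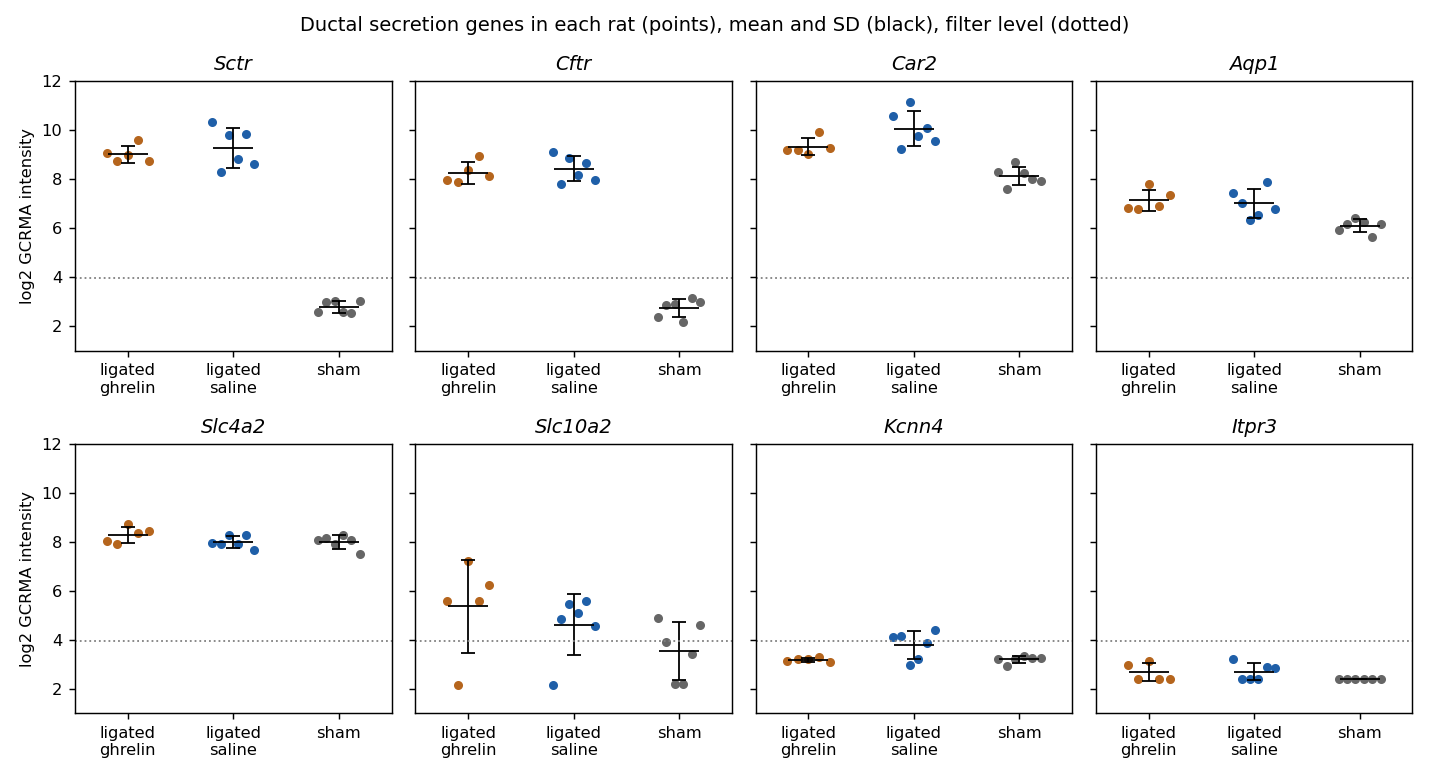
Log2 intensity (vertical axis) of the 8 secretion genes in each rat, by group (horizontal axis); points are rats, black bars the mean ± SD, and the dotted line the filter level of 3.95. Sctr and Cftr lie far above the line in all 11 ligated rats and below it in all 6 sham rats, while Kcnn4 and Itpr3 stay near or below it.

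Ligated ghrelin rats were set against the same sham rats, so this comparison is not independent of the one above and holds ligation and ghrelin together. Sctr was 6.22 ± 0.306 and Cftr 5.51 ± 0.256 higher on the log2 scale (SE, adjusted p = 2.50e-10 and 1.47e-10), at least 33.4-fold and 19.7-fold against the filter level. Car2 was 1.20 ± 0.288 higher (adjusted p = 0.00226) and Aqp1 1.04 ± 0.253 higher (adjusted p = 0.00244). Thus 4 of the 6 kept genes were higher in ligated ghrelin than in sham rats, beside 35.0% of all genes. Here too Sctr and Cftr count among the 6 only because ligated rats exceeded the filter level. The dimmer probe sets of Car2 (0.46 ± 0.261, adjusted p = 0.150) and Aqp1 (0.32 ± 0.257, adjusted p = 0.315) did not pass. Slc4a2 differed by 0.29 ± 0.164 (adjusted p = 0.143). Slc10a2 differed by 1.82 ± 0.807, with an unadjusted p of 0.0384 and an adjusted p of 0.0681 in the limma fit. Leaving out ligated ghrelin rat 2, the lowest of its group, made that difference 2.61 (adjusted p = 0.00400), and leaving out sham rat 1 made it 2.09 (adjusted p = 0.0478). Most other settings did not do so. Over 19 alternatives the Slc10a2 difference ran from 1.35 to 2.61 with adjusted p up to 0.185, and 16 of them gave no call.

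Whether ghrelin altered these genes in the ligated liver was read from ligated ghrelin against ligated saline rats. With limma 0 of the 6 kept genes passed in either direction, beside 1.76% of all genes higher and 0.585% lower. Car2 alone had an unadjusted p under 0.05, and the share of all genes under that threshold is not given here. Sctr differed by -0.27 ± 0.306 (log2, SE, 95% interval -0.92 to 0.37, adjusted p = 0.645). Cftr differed by -0.18 ± 0.256 (-0.72 to 0.36, adjusted p = 0.721). With 1 rat left out the Sctr difference ran from -0.474 (without ligated saline rat 2) to -0.0595 (without ligated saline rat 1), and the Cftr difference from -0.353 (without ligated ghrelin rat 4) to -0.0476 (without ligated saline rat 1). Neither 95% interval comes near the size of the difference between ligated and sham rats for the same gene.

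Car2, Aqp1 and Slc4a2 did not pass either. Car2 differed by -0.74 ± 0.288 on the log2 scale (95% interval -1.35 to -0.13, unadjusted p = 0.0208, adjusted p = 0.156), and its dimmer probe set by -0.59 ± 0.261 (unadjusted p = 0.0370, adjusted p = 0.207). Aqp1 differed by 0.13 ± 0.253 (-0.41 to 0.66, adjusted p = 0.812), and its dimmer probe set had the opposite sign, -0.45 ± 0.257 (adjusted p = 0.328). Slc4a2 differed by 0.28 ± 0.164 (-0.06 to 0.63, adjusted p = 0.332).

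Among the weakly measured genes, Slc10a2 differed by 0.74 ± 0.807 (-0.97 to 2.45, adjusted p = 0.634), the widest interval of the 6. It was 0.249 without ligated saline rat 1, 0.271 without ligated ghrelin rat 3 and 1.54 without ligated ghrelin rat 2, with no call in any of these fits. Without the filter, Kcnn4 differed by -0.60 ± 0.209 (-1.05 to -0.15, unadjusted p = 0.0120, adjusted p = 0.202) and Itpr3 by -0.03 ± 0.167 (adjusted p = 0.941). A p above the threshold does not show that the groups were alike.

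**Figure D2:**
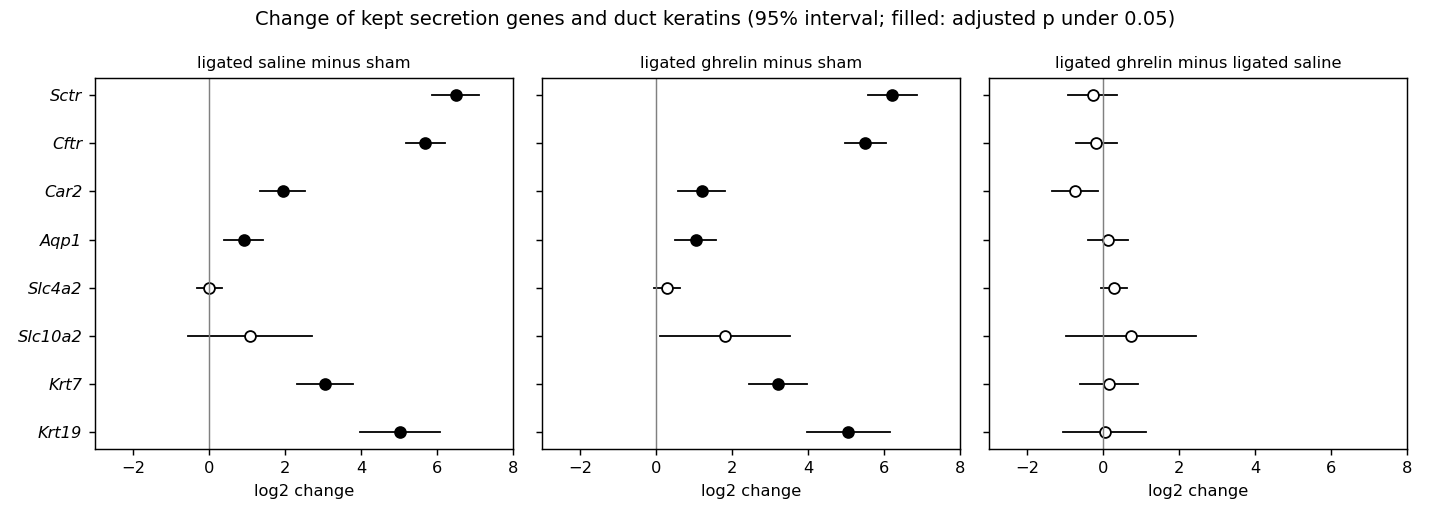
Fitted log2 change (horizontal axis) with its 95% interval for the 6 kept secretion genes and the duct keratins Krt7 and Krt19 in 3 comparisons; filled points have an adjusted p under 0.05. Sctr and Cftr changed by 5.51 to 6.49 in both comparisons with sham rats, and no point is filled in ligated ghrelin against ligated saline rats.

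Krt7 and Krt19, keratins of the duct epithelium, were used to set the secretion genes against the duct signal of the same rat. Their mean log2 intensity was 8.52, 8.39, 8.55, 8.56 and 8.44 in the ligated ghrelin rats. It was 9.31, 7.40, 9.29, 7.78, 8.75 and 7.84 in the ligated saline rats, and 3.62 to 5.62 in the sham rats. The group means were 8.49 ± 0.0737, 8.40 ± 0.829 and 4.36 ± 0.817 in ligated ghrelin, ligated saline and sham rats (SD, n = 5, 6 and 6). In this keratin mean the ligated ghrelin rats were much more alike than the ligated saline rats, which did not hold for every secretion gene.

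For each rat the keratin mean was subtracted from each secretion gene, and the groups were compared by an exact two-sided permutation test with adjustment over the 6 genes. The keratin mean itself was 4.04 higher in ligated saline than in sham rats. Relative to it, Sctr was 2.45 and Cftr 1.65 higher in ligated saline than in sham rats on the log2 scale. Car2, Aqp1 and Slc4a2 were lower relative to the keratins, with -2.11, -3.13 and -4.03. Each of these 5 had a p of 0.00216 in the exact permutation test, the smallest that 6 against 6 rats allow (adjusted 0.00260), and Slc10a2 differed by -2.96 (exact p = 0.0108, adjusted 0.0108). Any gene that rose by less than the keratins comes out lower here. Slc4a2 itself changed by 0.01, so its -4.03 is the keratin rise with the sign turned. Krt19 and Krt7 had the 32nd and 234th largest increases of 9736 genes, so most genes would come out lower too. Sctr, Cftr and mostly Krt7 were below the filter level in sham rats, which limits the sizes of these relative changes. The signs for Sctr and Cftr also depend on the duct markers taken. The 7 duct markers rose by 2.37 to 7.01 on the log2 scale, and Cd24, with 7.01, rose by more than Sctr (6.49) and Cftr (5.69). Whether Sctr and Cftr rose by more than the duct signal as a whole is therefore not settled.

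The same subtraction was made in ligated ghrelin against ligated saline rats, where the keratin mean differed by 0.10. None of the 6 genes passed after adjustment, and the smallest p the exact permutation test allows there is 0.00433. Relative to the keratins, Car2 differed by -0.83 (exact p = 0.0130, adjusted 0.0779) and Sctr by -0.37 (exact p = 0.0476, adjusted 0.143).

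Within the ligated saline group, Sctr, Cftr, Car2 and Slc4a2 had the same 3 highest rats as the duct keratins, and Aqp1 and Slc10a2 did not. These were ligated saline rats 1, 3 and 5, for Krt7 and Krt19 alike. Aqp1 had another order, highest in rat 5 and lowest in rat 3, and Slc10a2 was lowest in rat 1. Over the 11 ligated rats, after the group means were subtracted, Pearson's r was 0.925 between Sctr and Cftr, 0.839 between Sctr and Car2 and 0.852 between Cftr and Car2. It was 0.266 between Sctr and Aqp1, -0.185 between Aqp1 and Car2, and 0.673 between Slc4a2 and Slc10a2. These are descriptions over rats that share array processing, and no p is given. Ligated ghrelin rat 3, the highest of its group for Aqp1, Slc4a2 and Slc10a2, stood out in RNA quality. Its difference between 3′ and 5′ control probe sets was the largest of all 17 arrays (log2 2.62 for beta-actin and 0.620 for GAPDH). The part of RNA quality in these correlations and in the ghrelin differences was not tested.

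**Figure D3:**
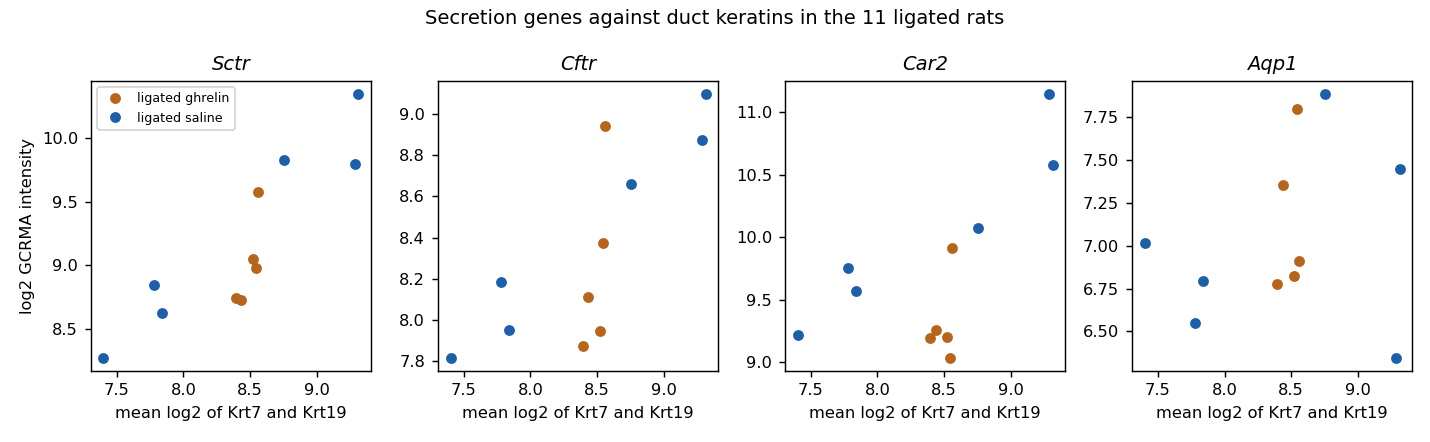
Log2 intensity of Sctr, Cftr, Car2 and Aqp1 (vertical axes, scaled per gene) against the mean log2 intensity of Krt7 and Krt19 (horizontal axis) in the 11 ligated rats; each point is 1 rat. The ligated ghrelin rats stand close together on the horizontal axis, at 8.39 to 8.56, and the ligated saline rats spread over 7.40 to 9.31.

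The genes whose pattern over the 11 ligated rats was most like that of each member were picked by the same r among 9735 other genes. For Sctr these were the duct marker Cd24 (r = 0.989) and Rtn1 (0.986). For Cftr they were Gucy1b1 (0.960), a subunit of soluble guanylate cyclase, and Arhgef10 (0.954). Car2 was most like Msi2 (0.971) and Trim32 (0.952), and Aqp1 was most like Avpi1 (0.959) and Scpep1 (0.945). Slc4a2 was most like Nherf2 (0.959), a membrane scaffold protein, and Zbtb7c (0.928), and Slc10a2 was most like Riok3 (0.896) and Arhgef1 (0.896).

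The neighbours of these genes in the secretion pathways were read from 6 lists, of which 53 genes were kept. In ligated saline against sham rats 40 of the 53 passed the test, 23 higher and 17 lower, a share of 75.5% beside 64.7% of all genes. The lists too were chosen with earlier results of these data known. Over all genes 37.5% were higher and 27.2% lower, and the counts of each list below stand beside these shares. Among 13 genes of the secretin signal (G proteins, adenylyl cyclases, protein kinase A, phosphodiesterases and related receptors) 10 were higher and 2 lower. Arrb2, an arrestin that ends receptor signalling, was 1.51 ± 0.136 higher on the log2 scale (SE, adjusted p = 9.69e-08). Pde4b, a phosphodiesterase that breaks down cyclic AMP, was 1.65 ± 0.199 higher (adjusted p = 2.48e-06). The 2 lower genes were Prkaca (-0.96 ± 0.163), a catalytic subunit of protein kinase A, and Vipr1 (-0.56 ± 0.141), a receptor of vasoactive intestinal peptide, both named after their values were seen. The other catalytic subunit on the list, Prkacb, was 0.65 ± 0.0856 higher, and was also picked after its value was seen.

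Of 10 ion transport genes 6 were higher and 2 lower in ligated saline than in sham rats. Slc4a4, the sodium bicarbonate cotransporter that loads cells with bicarbonate, was 2.51 ± 0.124 higher (log2, SE, adjusted p = 1.63e-10). Slc12a2, the sodium, potassium and chloride cotransporter that loads cells with chloride, was 2.91 ± 0.202 higher (adjusted p = 6.07e-09). Of 15 calcium and purinergic genes 4 were higher, 4 lower and 7 not called. The channel Pkd2, found in primary cilia, was 3.12 ± 0.270 higher (adjusted p = 6.60e-08), and the nucleotide receptor P2ry6 was 2.19 ± 0.202 higher (adjusted p = 1.30e-07). The other inositol trisphosphate receptors, named after their values were seen, went in opposite directions, with 0.78 ± 0.136 for Itpr1 and -0.69 ± 0.137 for Itpr2.

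The paralogs of the water channel and of the carbonic anhydrase did not all share the direction of Aqp1 and Car2. Of 5 other aquaporins, Aqp5 (2.22 ± 0.364) and Aqp7 (1.72 ± 0.528, at least 1.07-fold against the filter level) were higher in ligated saline than in sham rats, and Aqp8 (-0.38) and Aqp9 (-1.22 ± 0.131) were lower on the log2 scale. Aqp11 was lower too, with a mean log2 intensity of 5.39 in ligated saline and 7.39 in sham rats (adjusted p = 2.46e-05). Aqp8 and Aqp9 are aquaporins of hepatocytes. Of 5 other carbonic anhydrases 0 were higher and 3 were lower, Car3 (-9.11 ± 0.624), Car14 (-1.83 ± 0.160) and the mitochondrial Car5a (-1.36 ± 0.274). Of 5 kept genes of bile acid handling, the basolateral exporter Abcc3 was 4.54 ± 0.186 higher. Lower were the canalicular exporter Abcc2 (-2.42 ± 0.201), the hepatocyte uptake carrier Slc10a1 (-1.29) and the bile acid receptor Nr1h4 (-1.16).

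**Figure D4:**
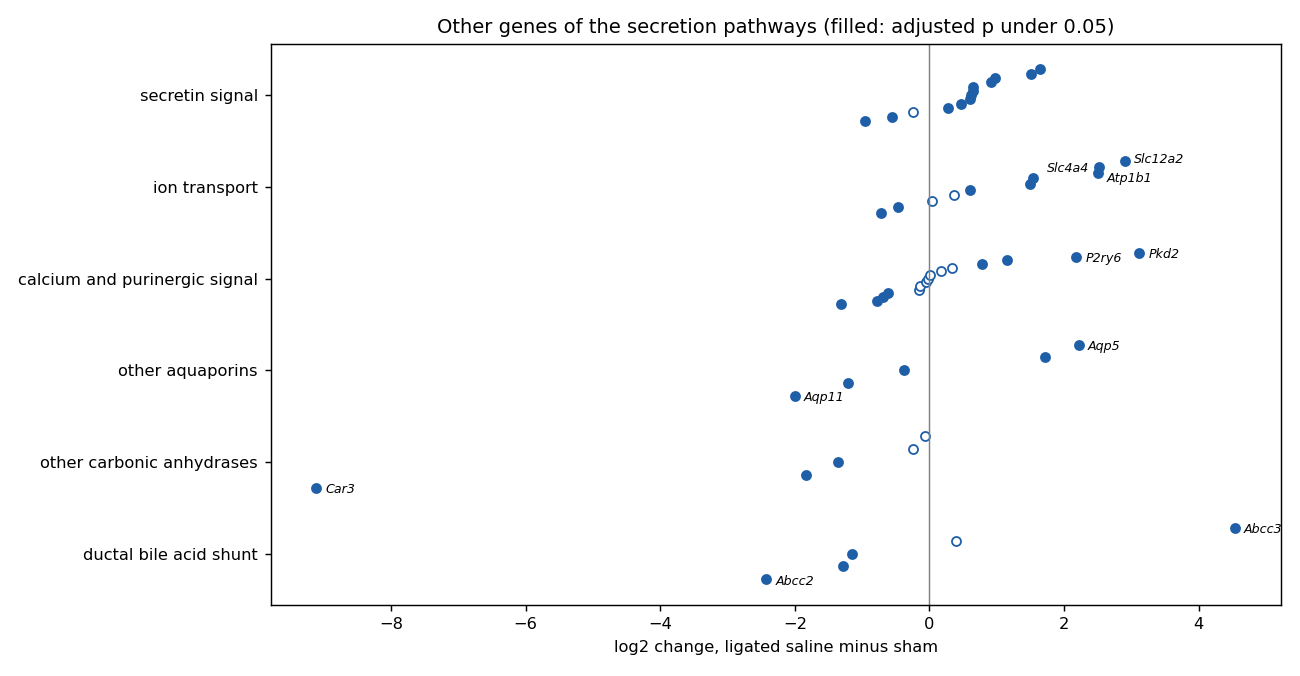
Log2 change in ligated saline minus sham rats (horizontal axis) of the 53 kept genes of 6 lists around the secretion genes (vertical axis); each point is a gene and filled points have an adjusted p under 0.05. Most secretin signal and ion transport genes lie right of 0, and the other carbonic anhydrases lie left of it, with Car3 at -9.11.

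In ligated ghrelin against ligated saline rats, 2 of the 53 list genes passed the test, a share of 3.77% beside 2.34% of all genes. Prkaca was 0.83 ± 0.171 higher (log2, SE, adjusted p = 0.0306), with means of 7.46 in ligated ghrelin, 6.62 in ligated saline and 7.59 in sham rats. For Prkaca, ligated ghrelin rats differed from sham rats by -0.13 ± 0.171 (adjusted p = 0.544). Its lower value in ligated saline against sham rats and its higher value here share the same ligated saline rats, so they are not independent. Slc4a7, a sodium bicarbonate cotransporter, was lower by -0.65 ± 0.165 (adjusted p = 0.0494), with means of 6.33 in ligated ghrelin and 6.98 in ligated saline rats. Neither call was firm. Over 20 other settings, the Prkaca change stayed between 0.708 and 0.915, but its adjusted p ran up to 0.0820 and was above 0.05 in 6 of them, which were the fit to these 2 groups alone and the fits without ligated saline rat 1 or 5 or without ligated ghrelin rat 2, 3 or 5. The Slc4a7 change stayed between -0.768 and -0.526, and its call was lost in 14 of the 20, with adjusted p up to 0.127. Among the fits that left out 1 rat, it held only without ligated saline rat 4 or ligated ghrelin rat 3. Creb1, the cyclic AMP response factor, had the next lowest p of the secretin signal genes and did not pass (-0.93 ± 0.257, adjusted p = 0.0606). It did pass when the probe sets of each gene were averaged, an alternative chosen for the list genes after seeing the data.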

How the data were processed

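Liver RNA of 17 rats was measured on 1 array each. The deposited intensity values per probe set are on a linear scale and were made by the authors with GCRMA, per the submitters' processing notes; the version is not given in the sources used here. Intensities (lowest value 2.14) were taken to log2 without a pseudocount. Of 31099 probe sets, 57 controls were left out, and 15965 of 31042 exceeded the median of all values (15.5) on at least 5 arrays and were kept. Symbols came from the platform annotation (20826 probe sets with 1 symbol, 436 with several, 9780 with none), and the kept probe set with the highest mean represented a gene. Promoters of 6 of the 8 genes were in the RefSeq table used, which did not list Kcnn4 and Car2.

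Log2 values were modelled by group in R 4.3.3 with limma 3.58.1 (eBayes, 14 residual and 2.54 prior degrees of freedom), with Benjamini-Hochberg adjustment over all kept probe sets and calls at an adjusted p under 0.05. The p-values measure the spread between rats, and the number of arrays limits the precision. A fold is a bound against the filter level where all rats of a group lay below it. The fit was checked on simulated data. Alternatives covered scaling, filters, probe set choice, variance settings and leaving out each rat. The 8 genes and all lists were chosen with earlier results of these data known. Named genes were the 8 genes, Krt7, Krt19, the 2 kept genes with the lowest p of a list, called genes of lists with 5 or fewer called, and the 2 most correlated genes of each kept member, from which the text takes a part; others are marked where named.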

Additional observations from a re-analysis of the deposited data

Results flagged for a closer look

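In 3 of the 30 groups of rats examined, over the 10 probe sets, 1 rat stood far from the rest of its group by Dixon's criterion, which chance alone exceeds in about 1 in 20 groups. Ligated ghrelin rat 4 had a Car2 value of 9.92 on the log2 scale, above the other 4 rats of its group by 0.753 of the group's range. Ligated saline rat 1 had a Slc10a2 value of 2.17, below the other 5 by 0.710 of the range. Sham rat 2 had a Kcnn4 value of 2.94, below the other 5 by 0.689 of the range, on a probe set that exceeded the filter level in too few rats to be kept.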

How the results depend on the processing

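Over 363 alternative values of the kept secretion genes, 351 kept their direction and their side of the threshold, 9 changed sign and 3 passed the threshold newly. All 9 sign changes were of differences that had not passed. Slc4a2 in ligated saline minus sham rats was -0.104 with quantile normalization, -0.179 with equal array medians, and between -0.0896 and 0.0773 with 1 rat left out. Aqp1 in ligated ghrelin minus ligated saline rats was -0.160 as the mean of its probe sets, and between -0.0407 and 0.302 with 1 rat left out. The 3 new passes were of Slc10a2 in ligated ghrelin minus sham rats: 1.50 with low values set to the filter level (adjusted p = 0.00829), and the fits without sham rat 1 or ligated ghrelin rat 2. In ligated saline minus sham rats, 4 of the 6 genes passed under all alternatives run, and Kcnn4 was added as a 5th without the filter. In ligated ghrelin minus ligated saline rats 0 passed under all 20, and the Car2 change ran over -0.904 to -0.518 with adjusted p of 0.0798 to 0.290. Relative to the duct keratins, the counts of 6 and 0 held under all alternatives run. The steady 6 says little, because any gene that rose by less than the keratins comes out lower. It also leaves unsettled whether Sctr and Cftr rose by more than the duct signal as a whole. None of these alternatives set low values to the filter level, and none used Cd24 as the duct marker. Epcam alone replaced the keratins in 1 of them, chosen after seeing the data, since the planned pair with Sox9 was not run, Sox9 having no probe set in the annotation used. Of the list genes, 65 of 87 passed in ligated saline minus sham rats without the filter (25 higher, 40 lower), against 36 to 44 under the other alternatives. In ligated ghrelin minus ligated saline rats 1 list gene passed with quantile normalization, with equal array medians and without the filter, 0 in the fit to these 2 groups alone, and 0 to 5 with 1 rat left out (0 without ligated saline rat 1 or 5, or ligated ghrelin rat 2 or 5, and 5 without ligated saline rat 4). For the list genes, the alternatives other than scaling and the filters were chosen after seeing the data. The median change of all genes in ligated saline minus sham rats was 0.07 as deposited, -0.05 after quantile normalization and -0.12 with equal medians. No paired analysis was possible because the labels give no numbers shared between groups. The causes were not tested.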
